A study of Mus musculus with 25 samples.

Results

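The circadian clock genes Per1, Per2, Per3, Cry1, Arntl, Dbp, Tef, Nr1d1, Nr1d2 and Ciart were measured in microglia sorted from the brains of 23 mice. The 10 genes were chosen by symbol as members of the clock and not by their values here, out of 43411 genes in the table, and all 10 passed the filter on low counts that left 12908 genes for testing. Their levels were compared between genotypes and between ranges of animal numbers, which addresses whether the mice could have been collected at different phases of the daily cycle. The labels state no time of collection.

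Microglia were sorted as CD11b+ cells with medium CD45 and frozen before RNA extraction, and 1 RNA-seq library was made per mouse at 3 months of age. WT mice (n = 6, 2 females and 4 males) were Bin1flox/wt Thy1-Cre-, heterozygous Bin1-cKO mice (n = 7, 4 females and 3 males) were Bin1flox/wt Thy1-Cre+, and homozygous Bin1-cKO mice (n = 10, 5 females and 5 males) were Bin1flox/flox Thy1-Cre+. All mice, WT included, thus carried at least 1 floxed Bin1 allele, and the Thy1 promoter drives Cre in neurons, so that Bin1 was deleted there and not by design in the microglia measured here. Mice are named below by sex and a number within the genotype, such as homozygous M4. The first 2 digits of the animal number were 02 in all 13 WT and heterozygous mice, 03 in homozygous F1, F2, F3, M1, M2 and M3, and 04 in homozygous F4, F5, M4 and M5. Genotype and number range cannot be told apart between homozygous mice and the others, and what a number range stands for is not stated.

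Total counts ranged from 10812969 to 16734846 per mouse, with a median of 13477985. Summed over 9 microglial markers, levels were 58259 to 84022 CPM (counts scaled to a common normalised library total) in WT, 54165 to 73185 CPM in heterozygous and 48396 to 56614 CPM in homozygous mice. Summed over 8 neuronal markers they were 12.0 to 35.8 CPM in WT, 12.7 to 31.8 CPM in heterozygous and 4.89 to 8.60 CPM in homozygous mice. Over 5 monocyte and neutrophil markers they were 4.63 to 20.2 CPM in WT, 4.43 to 29.0 CPM in heterozygous and 11.8 to 56.0 CPM in homozygous mice. The part of these shifts in the clock gene values was not tested. In these bulk samples, fewer cells of a type and less RNA per cell cannot be told apart.

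The mammalian clock is a loop of transcription and repression that runs in nearly every cell, microglia included. BMAL1, the product of Arntl, pairs with CLOCK, binds the E-box sequence and activates Per, Cry, Nr1d1, Nr1d2, Dbp, Tef and Ciart, whose products PER and CRY return to repress CLOCK and BMAL1. REV-ERB proteins from Nr1d1 and Nr1d2 repress Arntl through the ROR response element, and DBP and TEF bind the D-box, which places a further layer of targets such as Per3 under the clock. In most tissues Arntl therefore peaks at the opposite time of day to Nr1d1 and Dbp, and a set of samples taken at mixed times shows these genes moving against each other.

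Promoter sequences were examined for these motifs, which are the sequences that the arms of the loop bind. Windows of 250 bases before each RefSeq start (build GRCm38.p6) were available for 9 of the 10 genes, 12 windows in all, and Per2 had none. The motifs were the E-box CACGTG, the D-box TTANGTAA, the ROR response element TAGGTCA or TGGGTCA, and the cAMP response element TGACGTCA, each searched on both strands. An E-box was found in 4 of the 9 genes (Per1, Cry1, Tef and Ciart), against 6.86% of all 26994 genes with a window. Per3 held a D-box at 2 places, against 2.44% of all genes. The ROR response element and the cAMP response element were in none of the 12 windows, and are in 6.16% and 1.77% of all genes. Arntl, Dbp, Nr1d1 and Nr1d2 had none of the 4 motifs in this window, which says only that these letters are not there. The stretches below are shown because they carry the motifs, with the motif in capitals, written 5′ to 3′ on the strand of the gene. An E-box stretch at an earlier start of Tef, which lies wholly in an annotated exon, is not shown, and none of those shown overlaps an annotated exon. They lie at chr11:69098753-69098803 (plus strand, Per1), chr4:151044801-151044900 (minus strand, Per3), chr10:85185094-85185144 (minus strand, Cry1), chr15:81811246-81811296 (plus strand, a later start of Tef) and chr3:95882252-95882374 (minus strand, Ciart).
Per1, E-box: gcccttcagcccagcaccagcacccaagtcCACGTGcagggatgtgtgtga
Per3, D-box: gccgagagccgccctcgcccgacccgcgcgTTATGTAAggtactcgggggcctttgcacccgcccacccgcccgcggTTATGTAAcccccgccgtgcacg
Cry1, E-box: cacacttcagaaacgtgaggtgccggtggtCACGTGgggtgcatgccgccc
Tef, E-box: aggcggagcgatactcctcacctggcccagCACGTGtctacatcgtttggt
Ciart, E-box: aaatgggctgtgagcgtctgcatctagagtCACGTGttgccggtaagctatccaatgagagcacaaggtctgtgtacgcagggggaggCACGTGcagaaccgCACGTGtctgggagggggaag
The Ciart promoter held the E-box 3 times, 116, 58 and 44 bases before the start (counted to the first base of each match), whereas the match in Cry1 began 60 bases and that in Per1 166 bases before the start.

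Per unit of transcript length, the output genes Tef and Nr1d2 were the most abundant of the 10. Over the 23 mice, Nr1d2 was at 10.8 ± 1.75 and Tef at 10.5 ± 1.47 CPM per kb of exon (SD, n = 23), which did not differ beyond their spread. Dbp followed at 4.77 ± 1.21, Cry1 at 3.46 ± 1.01, Nr1d1 at 2.58 ± 1.07 and Arntl at 2.27 ± 0.542 CPM per kb, each overlapping its neighbour within 1 SD. Per1 (1.21 ± 0.348), Per3 (1.17 ± 0.489) and Per2 (0.930 ± 0.358 CPM per kb) did not differ beyond their spread, and Ciart, a repressor of CLOCK and BMAL1, was lowest at 0.545 ± 0.282 CPM per kb. Ciart rested on a median of 16 counts per mouse, against 1083 for Tef.

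The spread among mice differed between the clock genes. The biological coefficient of variation that edgeR estimates lay above the trend at the gene's level for 6 of the 10 (Per2, Per3, Arntl, Dbp, Nr1d1 and Nr1d2), against 27.8% of all genes tested. It was 0.376 for Nr1d1, 0.364 for Per3 and 0.360 for Per2, and 0.130 for Tef. Per1, Cry1, Tef and Ciart lay below the trend at their level.

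**Figure D1:**
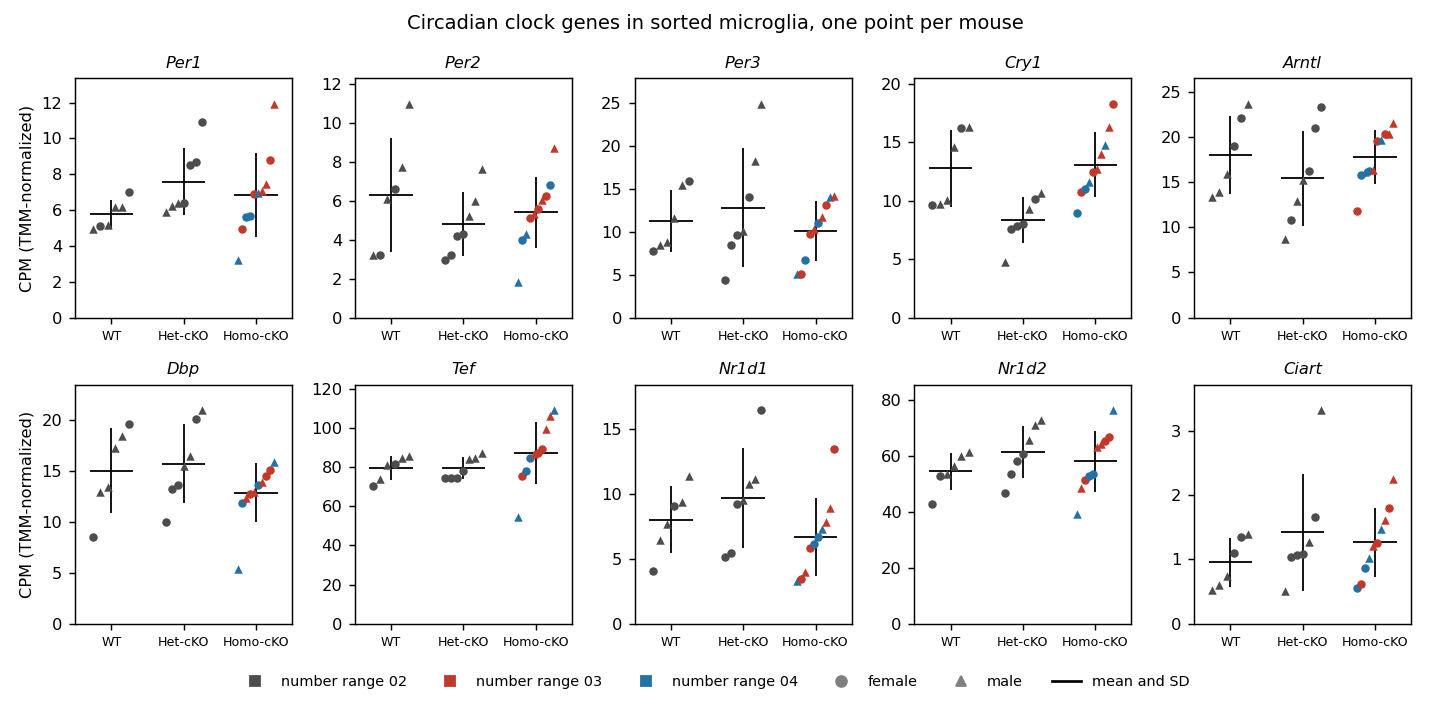
Levels of the 10 clock genes in each mouse in CPM by genotype, with homozygous mice of number ranges 03 and 04 distinguished. The genotypes overlap in every gene, and homozygous M4 is the lowest of the 23 mice in Per1, Per2, Dbp, Tef, Nr1d1 and Nr1d2.

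Between homozygous and WT mice, none of the 10 clock genes passed the test. At an adjusted p below 0.05, the threshold for a call throughout, 0 of 10 were called, against 12.7% of all genes tested. At an unadjusted p below 0.05 there were also 0 of 10, against 27.1% of all genes. The genes split into 5 higher and 5 lower, with a median log2 fold change of 0.01. Adjusted p-values lay between 0.314 and 0.936 (edgeR's quasi-likelihood test). The test sets the difference between groups against the spread between mice, each of which is a separate animal.

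Among the activators and their targets, Arntl (ENSMUSG00000055116.7, chromosome 7 from 113207465 to 113314126) was at 13.4, 17.4 and 23.6 CPM (lowest, median and highest) in WT and at 11.8, 17.9 and 21.5 CPM in homozygous mice. Its homozygous to WT ratio was 0.978 with a 95% confidence interval of 0.762 to 1.25. Dbp, an output factor with a strong daily rhythm in most tissues, was at 8.51, 15.3 and 19.6 CPM in WT and 5.41, 13.3 and 15.9 CPM in homozygous mice, a ratio of 0.863 (0.654 to 1.14). For both genes the ranges overlapped through most of their length, and homozygous M4 alone lay below all WT mice in Dbp.

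Nr1d1, the REV-ERB alpha gene that represses Arntl, was at 4.03, 8.37 and 11.4 CPM in WT and 3.29, 6.42 and 13.4 CPM in homozygous mice, a ratio of 0.849 (0.562 to 1.28). Nr1d2, its paralog, was at 42.9, 55.03 and 61.5 CPM in WT and 39.2, 58.4 and 76.5 CPM in homozygous mice, a ratio of 1.09 (0.933 to 1.28). In both genes the homozygous mice covered the whole WT range and reached beyond it at both ends. Tef, the PAR bZIP partner of Dbp, had the narrowest interval of the 10 (ratio 1.11, 0.971 to 1.28), and Ciart the widest (1.33, 0.773 to 2.29). Whether Tef was called rested on 1 mouse. With all mice its log2 fold change was 0.16 (adjusted p = 0.314), and without homozygous M4 it was 0.23 with an adjusted p of 0.0167. With the homozygous mice of range 03 alone, in a fit that left out range 04, it was 0.22 with an adjusted p of 0.0408.

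None of the repressor genes was called. Ratios of homozygous to WT mice were 1.18 for Per1 (0.878 to 1.59), 0.905 for Per2 (0.608 to 1.35), 0.920 for Per3 (0.622 to 1.36) and 1.03 for Cry1 (0.805 to 1.32). Per1, which is also an immediate-early gene, ran from 4.94 to 6.99 CPM in WT mice. Homozygous mice were lower and higher than this, and Per1 was at 11.9 CPM in M2, 8.82 CPM in F1, 7.43 CPM in M1, 7.07 CPM in M3, 6.96 CPM in M5 and 6.92 CPM in F2, so that F1, M1, M2 and M3 lay above all WT mice. F1, F2, M1 and M2 were the 4 mice with high Fos, an immediate-early gene of activated cells, at 824 to 1459 CPM, against 0.36 to 6.999 CPM in the other homozygous mice and 0.07 to 1.73 CPM in WT. Per2 ran from 1.83 CPM in homozygous M4 to 10.96 CPM in WT M4, and Per3 from 4.32 CPM in heterozygous F3 to 24.8 CPM in heterozygous M4. Without the 4 mice with high Fos, the log2 fold change of Per1 was -0.07, compared with 0.24 (SE 0.21) with all.

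**Figure D2:**
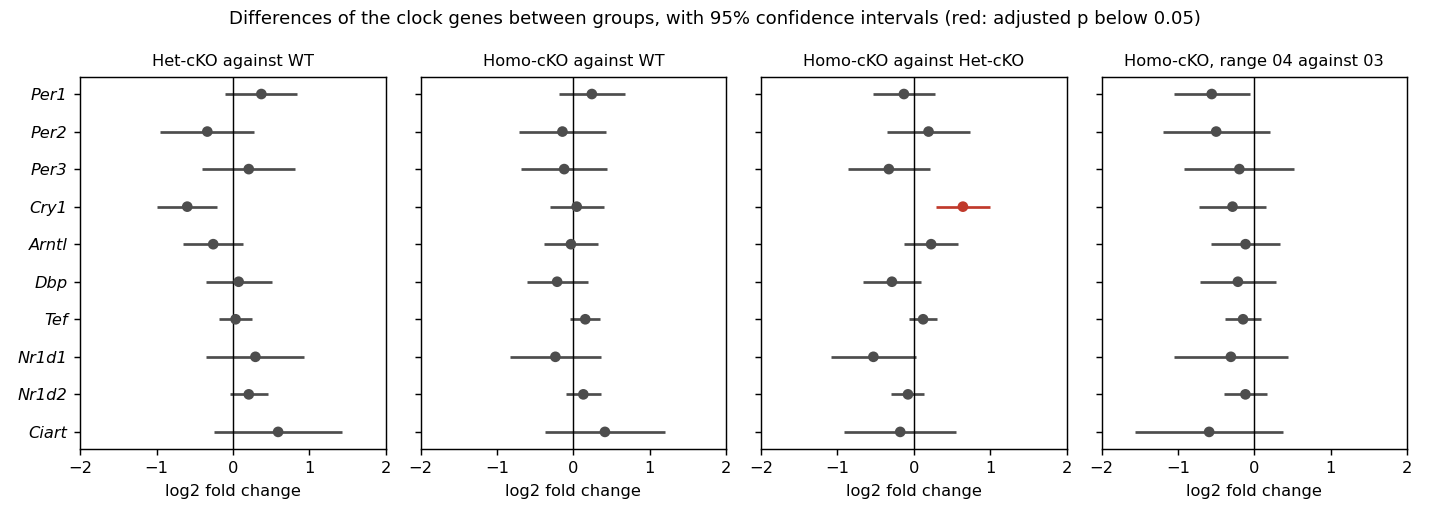
Log2 fold changes of the 10 clock genes with 95% confidence intervals in the comparisons of genotypes and of the number ranges of homozygous mice. The intervals of all 10 genes include 0 between homozygous and WT mice. Cry1 lies away from 0 between homozygous and heterozygous mice, where it was called. The intervals of Cry1 between heterozygous and WT mice and of Per1 between number ranges also exclude 0, without a call.

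Cry1, which encodes a repressor of CLOCK and BMAL1, was the clock gene with a call between genotypes. Its gene (ENSMUSG00000020038.9) lies on chromosome 10 of GRCm38 from 85131700 to 85185064 on the minus strand. It was at 9.62, 12.3 and 16.3 CPM in WT, at 4.77, 8.04 and 10.7 CPM in heterozygous and at 8.97, 12.6 and 18.3 CPM in homozygous mice. The highest heterozygous mice reached into the lower end of both other groups, and heterozygous M1 was the lowest of all mice. Between homozygous and heterozygous mice Cry1 was higher by 0.64 on the log2 scale (SE 0.17, ratio 1.56 with an interval of 1.23 to 1.99, adjusted p = 0.00854). It was the 1 call among the 10 genes, against 22.7% of all genes, and 6.62% of all genes had such a call with a fold change above 1.5. At an unadjusted p below 0.05 there was also 1 of 10, against 35.7% of all genes. The call stood in every fit that left out 1 mouse (log2 fold change 0.53 to 0.71, adjusted p 0.00513 to 0.0217). With the homozygous mice of range 04 alone it was not made (0.46, adjusted p = 0.167).

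Between heterozygous and WT mice, 0 of 10 genes were called, as of all genes (0%; DESeq2 called 3 of all genes and none of the 10). Cry1 had a log2 fold change of -0.60 (SE 0.19, p = 0.00426 and adjusted p = 0.484 by edgeR's quasi-likelihood test), the 1 clock gene at an unadjusted p below 0.05, against 7.73% of all genes. Arntl was also lowest in a heterozygous mouse, M1, at 8.69 CPM, and that animal had the highest Dbp (21.0 CPM) and Ciart (3.32 CPM) of the 23. Heterozygous mice spanned 8.69 to 23.2 CPM in Arntl, nearly the range of all mice.

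The other genes had log2 fold changes between homozygous and heterozygous mice of -0.53 (Nr1d1, SE 0.27, adjusted p = 0.157) to 0.23 (Arntl, SE 0.17, adjusted p = 0.356). Nr1d1 was at 5.11, 9.55 and 16.4 CPM in heterozygous mice, with the highest value in F4. Whether Nr1d1 was called depended on which mice entered. Without homozygous F1, which had 13.4 CPM, the log2 fold change was -0.73 with an adjusted p of 0.0398, and without F1, F2, M1 and M2 together it was -0.80 with an adjusted p of 0.0493. For Tef, leaving out homozygous M4 gave 0.18 with an adjusted p of 0.0279.

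A difference between males and females in the effect of homozygous deletion was called for 0 of the 10 genes, and for 0% of all genes (edgeR's quasi-likelihood test).

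Between number ranges within the homozygous mice, 0 of 10 genes were called, against 0.442% of all genes, and Per1 had an unadjusted p of 0.0285 (adjusted p = 0.42), against 9.86% of all genes at an unadjusted p below 0.05. All 10 genes were lower in range 04, with a median log2 fold change of -0.25, whereas the median of all genes was 0.00. Per1 was at 3.22, 5.64 and 6.96 CPM in range 04 and at 4.97, 7.25 and 11.9 CPM in range 03, a difference of -0.56 (SE 0.24). The largest value in range 03 belonged to M2 and the smallest in range 04 to M4, and the ranges overlapped.

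The shared direction rested partly on homozygous M4. Without it, 6 of 10 genes were lower, the median was -0.11, and Per3, Dbp, Tef and Nr1d2 were at 0.05, 0.04, 0.02 and 0.04. M4 held the lowest value of the 23 mice in 6 of the 10 genes: 3.22 CPM for Per1, 1.83 for Per2, 5.41 for Dbp, 54.7 for Tef, 3.29 for Nr1d1 and 39.2 for Nr1d2. Arntl was not low in M4 (16.1 CPM, against a median of 17.9 CPM in homozygous mice). The same mouse had the highest Fkbp5 of all mice, at 162 CPM against a median of 83.5 CPM in homozygous mice. Fkbp5 is induced by glucocorticoids, as is Per1, which was lowest in M4. Summed over 12 glucocorticoid-induced genes, levels were 1637 to 2049 CPM in range 04, which includes M4. They were 1721 to 3383 CPM in range 03 and 1917 to 2050 CPM in WT. The part of glucocorticoids in the values of M4 was not tested.

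Against each reference group, the ranges gave these results. They come from a fit of all mice, with the number ranges in place of genotype. With WT as reference, 0 of 10 genes were called in range 03 (10.8% of all genes) and 0 in range 04 (6.46%). Tef in range 03 was at 0.21 (adjusted p = 0.203 by edgeR's quasi-likelihood test). The call of Tef with range 03 alone came from a separate fit without the mice of range 04, so it depended on the fit. With heterozygous mice as reference, Cry1 was called in range 03 (log2 fold change 0.75, adjusted p = 0.00663, with 18.5% of all genes called) and no gene in range 04 (Cry1 at 0.46, adjusted p = 0.142, with 11.8% of all genes called). These comparisons share their reference mice. The difference in Cry1 between the ranges was -0.29 (SE 0.21, adjusted p = 0.735).

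Whether the clock genes moved with or against each other among mice was then examined within the 13 mice of range 02 and within the 10 homozygous mice, by Pearson's r of log2 CPM over 45 pairs of genes each. In range 02, 27 pairs were positive and 18 negative. The median size of r was 0.45, against 0.238 for all pairs of genes tested, and 19 pairs (42.2%) exceeded 0.5 in size, against 13.3% of all pairs. Arntl had negative values with the REV-ERB genes, Dbp and Per3, with r of -0.74 with Nr1d2, -0.67 with Nr1d1, -0.67 with Dbp and -0.65 with Per3. Dbp rose with Nr1d1 (r = 0.80, Spearman's rho = 0.76, permutation p = 0.00102, adjusted p = 0.0459 over 45 pairs), the 1 pair below an adjusted p of 0.05. Without the 2 mice farthest from the median in Dbp, r was 0.58. For Arntl and Dbp, rho was -0.76, the permutation p of r was 0.0135 and its adjusted p was 0.0984.

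**Figure D3:**
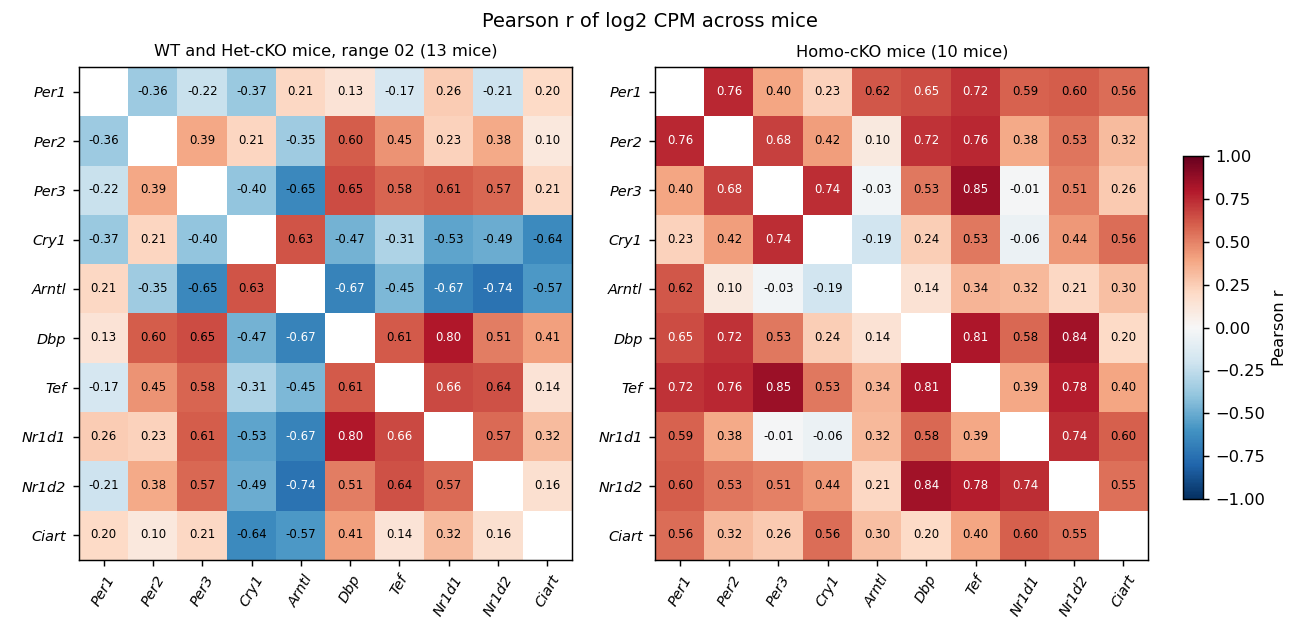
Pearson's r of log2 CPM for each pair of the 10 clock genes over the 13 mice of number range 02 and over the 10 homozygous mice. Arntl and Cry1 are negative with most other genes in range 02, whereas 41 of 45 pairs are positive in homozygous mice.

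Sequencing depth moved with several of these genes in range 02. The r with the log2 total count was 0.72 for Arntl, 0.60 for Cry1, -0.74 for Per3 and -0.64 for Nr1d2, and 22.3% of all genes exceeded 0.5 in size. After the log2 total was removed, the median size of r was 0.354, 12 pairs exceeded 0.5 and no pair had an adjusted p below 0.05. Arntl with Dbp was then -0.66, Dbp with Nr1d1 0.78 and Per3 with Arntl -0.24. The first principal component of all genes (18.4% of the variance, r = 0.74 with the log2 total) had r of 0.82 with Cry1, 0.74 with Arntl and -0.76 with Per3. After this component was removed, 9 pairs exceeded 0.5, Arntl with Dbp was -0.34 and Dbp with Nr1d1 was 0.68.

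Arntl and Dbp, which peak at opposite times of day in most tissues, were then set against each other in each mouse. The log2 difference of Dbp minus Arntl ran from -1.36 to 0.45 in WT, from -0.81 to 1.26 in heterozygous and from -1.55 to 0.35 in homozygous mice. WT F2 was lowest of the WT mice, with the lowest Dbp among them (8.51 CPM) and 22.1 CPM of Arntl. Among homozygous mice the extremes were M4 and F3, and the range was -0.66 to 0.35 in range 03 and -1.55 to -0.25 in range 04, so that the groups overlapped.

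**Figure D4:**
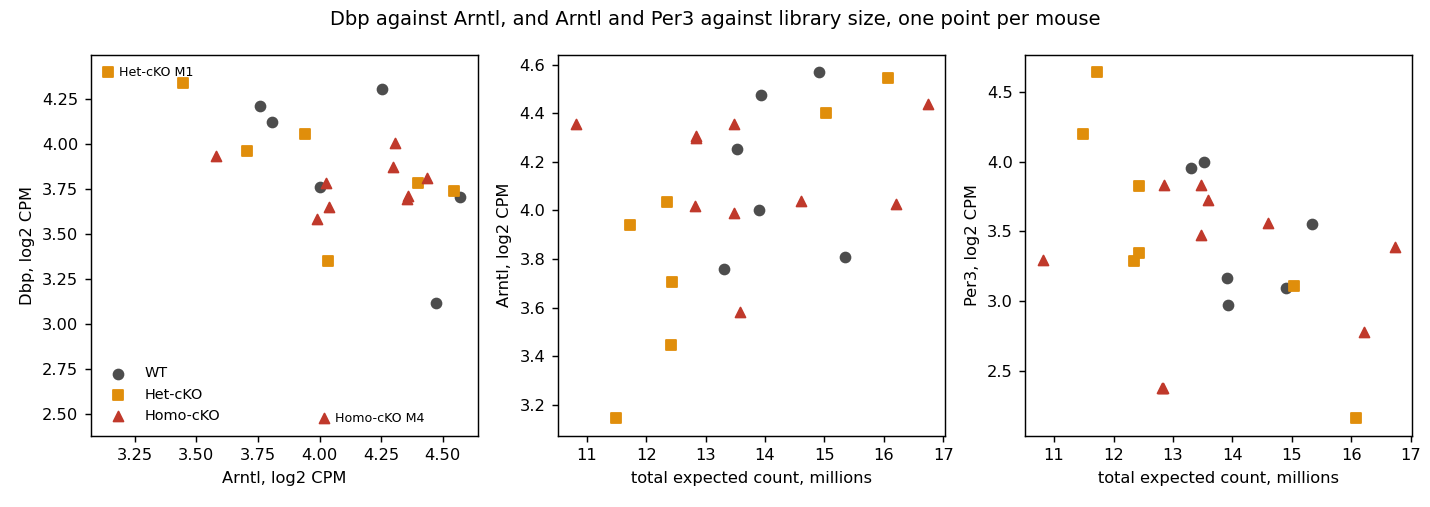
Dbp against Arntl, and Arntl and Per3 each against the total count, for each mouse. Gene levels are in log2 CPM, and the total count is not on a log2 scale. Dbp falls as Arntl rises among the 13 mice of range 02 (r = -0.67), and among the 10 homozygous mice r is 0.14.

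In homozygous mice 41 of 45 pairs were positive, with a median size of r of 0.53 against 0.256 for all pairs, and 24 pairs (53.3%) above 0.5 against 16.3% of all pairs. Dbp rose with Nr1d2 (r = 0.84, rho = 0.93, permutation p = 0.00022, adjusted p = 0.00788) and Per3 with Tef (r = 0.85, rho = 0.85, permutation p = 0.00035, adjusted p = 0.00788). Without the 2 mice farthest from the median, these were 0.76 and 0.75. Arntl with Dbp was 0.14. Depth had r of -0.19 to 0.32 with the 10 genes here. Without homozygous M4, the median size of r was 0.347, 14 pairs exceeded 0.5 and no pair had an adjusted p below 0.05, although Dbp with Nr1d2 was still 0.85.

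The genes whose pattern in range 02 was most like that of Nr1d1 and Dbp were not clock genes. The genes listed were taken from outside the 10 members. By Pearson's r over the 13 mice, those nearest to Nr1d1 were Tbx6 (0.90), Usp40 (0.88), Sharpin (0.88), 4933439C10Rik (0.87) and Gigyf1 (0.86), and Dbp ranked 34th among all genes. Nearest to Dbp were AA386476, Fam173a and Zswim8 (0.91 each), Hdac4 (0.91) and Perm1 (0.89), with Nr1d1 ranked 54th. In homozygous mice the r of these 10 genes with their clock gene lay between -0.40 and 0.18. Because they were picked for high r in range 02, a lower r in other mice cannot be told apart from the picking.

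Of 37 further genes of the clock pathway, 33 had enough counts to be tested, in lists of transcription factors, protein modifiers and outputs. Of 7 transcription factors tested, 1 was called lower between homozygous and WT mice, against 7.09% of all genes, and 6 were not called. It was Hlf, the third PAR bZIP factor beside Dbp and Tef, at 18.7, 22.3 and 28.1 CPM in WT, 17.8, 23.97 and 26.4 CPM in heterozygous and 6.14, 14.6 and 22.5 CPM in homozygous mice. Its log2 fold change was -0.71 (SE 0.18, adjusted p = 0.0123) against WT and -0.67 (SE 0.17, adjusted p = 0.00791) against heterozygous mice. Homozygous M4 was again lowest and F3 highest, overlapping WT. Without M4 it was -0.61 (adjusted p = 0.0154), and with range 03 alone -0.49 (adjusted p = 0.0521).

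Clock, the partner of BMAL1, was at a log2 fold change of 0.12 between homozygous and WT mice. Cry2 was at -0.06, the E-box repressors Bhlhe40 and Bhlhe41 at 0.21 and 0.16, Rora, an activator of Arntl, at -0.05, and Nfil3, the D-box repressor, at -0.04. None of these was called. Npas2 had too few counts to be tested.

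Of 19 genes of kinases, ubiquitin ligases and other protein partners of the clock, 3 rose between homozygous and WT mice (5.66% of all genes were called higher), none fell and 16 were not called. Tipin, the partner of TIMELESS at replication forks, was at 10.5, 14.5 and 18.8 CPM in WT, 8.77, 10.9 and 13.6 CPM in heterozygous and 17.4, 20.02 and 25.8 CPM in homozygous mice. All homozygous mice lay above all heterozygous mice, as in 2.32% of all genes in either direction. Its log2 fold change was 0.53 (adjusted p = 0.00463) against WT and 0.91 (adjusted p = 1.26e-05) against heterozygous mice. Nono, an RNA-binding partner of PER, was higher by 0.19 (adjusted p = 0.0264) and 0.18 (adjusted p = 0.0166), a call lost against WT in each number range alone (adjusted p = 0.0617 and 0.138). It was also lost without WT F1, M1 or M4 or homozygous M5 (0.15 to 0.17, adjusted p 0.0507 to 0.101) and without a filter on low counts (adjusted p = 0.0891). Without homozygous F1, F2, M1 and M2 it was lost against WT (adjusted p = 0.0838) and heterozygous mice (adjusted p = 0.0684), and against the latter also with range 04 alone (adjusted p = 0.115).

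Fbxl21, a ubiquitin ligase subunit for CRY, was higher by 2.06 (adjusted p = 0.0437) against WT, from a median of 1 count in WT and 11 counts in homozygous mice. The size of this change is not firm at such counts, and leaving out 1 mouse ended the call in 13 of 23 fits, as did limma-voom (adjusted p = 0.2). Between homozygous and heterozygous mice, Usp7 (-0.22, adjusted p = 0.0263) and Sfpq (-0.26, adjusted p = 0.00667) fell, against 11.7% of all genes called lower. The Usp7 call was lost in each number range alone (adjusted p = 0.0581 and 0.126) and without heterozygous F2 or M4 (-0.20 and -0.18, adjusted p = 0.059 and 0.0771). With scaling by library total alone neither was called (adjusted p = 0.135 for Usp7 and 0.0644 for Sfpq), and without a filter on low counts Usp7 was not (adjusted p = 0.0587).

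Of 7 output genes, 2 fell between homozygous and WT mice (7.09% of all genes were called lower) and 5 were not called. Usp2, a deubiquitinase of clock proteins, was at 258, 314 and 320 CPM in WT and 210.6, 252 and 285 CPM in homozygous mice, lower by a log2 fold change of -0.29 (adjusted p = 0.00481). Tspan4, a tetraspanin, was at 194, 210 and 237 CPM in WT and 126, 161 and 191 CPM in homozygous mice (log2 fold change -0.42, adjusted p = 0.00258). The groups of Tspan4 did not overlap, as in 1.81% of all genes. Against heterozygous mice, Usp2 (-0.34, adjusted p = 0.000468) and Tspan4 (-0.26, adjusted p = 0.0257) fell. Nampt, the rate-limiting enzyme of NAD salvage, rose (0.46, adjusted p = 0.000846), and so did Klf10 (0.68, adjusted p = 0.0101), against 11.1% of all genes called higher. With range 04 alone the calls of Tspan4 and Klf10 were lost (adjusted p = 0.135 and 0.169), as they were without homozygous F1, F2, M1 and M2, the mice with high Fos (Tspan4 at -0.18, adjusted p = 0.167, and Klf10 at 0.41, adjusted p = 0.142). That of Tspan4 was also lost without heterozygous F4 or M4 (-0.21 and -0.25, adjusted p = 0.0797 and 0.0507), without homozygous M4 and heterozygous M1 together (adjusted p = 0.053) and with scaling by library total alone (adjusted p = 0.0706). Heterozygous against WT mice and range 04 against range 03 gave 0 calls among the 33 genes.

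**Figure D5:**
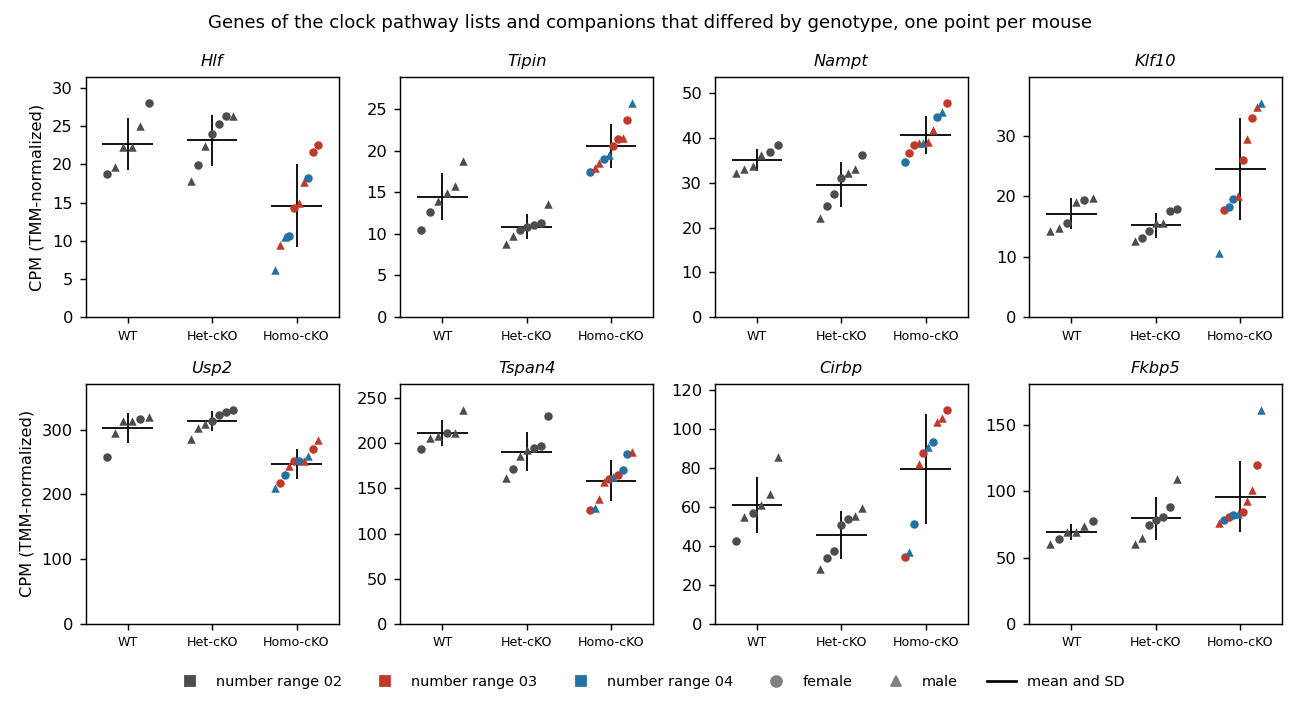
Levels in CPM of Hlf, Tipin, Nampt, Klf10, Usp2, Tspan4, Cirbp and Fkbp5 in each mouse by genotype and number range. Hlf, Usp2 and Tspan4 lie lower and Tipin higher in homozygous than in WT mice, and homozygous M4 is lowest in Hlf and highest in Fkbp5.

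Genes that respond to cell stimulation, glucocorticoids or temperature, which are known to act on clock genes too, were measured beside them. Of 13 immediate-early genes tested, 11 rose between homozygous and WT mice, against 730 of all 12908 genes, and 9 fell between range 04 and range 03, against 46 of all 12908 genes, where Per1 was lower by 0.56. Homozygous F1, F2, M1 and M2, the mice with high Fos, were all of range 03. Summed over 15 immediate-early genes, levels were 991 to 13586 CPM in range 03 and 763 to 895 CPM in range 04. They were 633 to 802 CPM in WT. Fkbp5 rose between homozygous and WT mice (0.48, adjusted p = 0.0276), where 5.66% of all genes were called higher. It was at 60.6 to 77.4 CPM in WT and 75.9 to 162 CPM in homozygous mice. The sum of 12 glucocorticoid-induced genes had nearly the same median in both groups, 1974 CPM in WT and 1990 CPM in homozygous mice. Its range was 1917 to 2050 CPM in WT and 1637 to 3383 CPM in homozygous mice. The cold-inducible RNA-binding genes Cirbp (0.79, adjusted p = 0.011) and Rbm3 (0.32, adjusted p = 0.036) were higher in homozygous than in heterozygous mice. In this comparison 11.1% of all genes were called higher. The sum of 8 temperature-responsive genes overlapped, at 1011 to 1562 CPM (median 1298) in heterozygous and 822 to 1691 CPM (median 1307) in homozygous mice. The part of all these genes in the values of the clock genes was not tested.

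Some clock genes share exon sequence with a gene on the other strand, and the sources do not state whether counting used the strand. Dbp shares 539 bases (18.0% of its exons) with Sphk2, which had a median of 1067 counts, and Nr1d1 shares 263 bases (8.55%) with Thra, with a median of 122 counts. Reads from these stretches cannot be told apart, and Dbp and Nr1d1 had medians of 195 and 102 counts. Tef and Arntl share 193 and 33 bases with antisense transcripts.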

How the data were processed

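RNA-seq of sorted microglia was analysed in 23 mice. Single-end reads had been aligned by the authors to mm10 (OmicSoft OSA4; gene models of Ensembl R84). They estimated the deposited expected counts per gene with RSEM and tested with DESeq2. Strand setting and gene filters are not given in the sources used here. A WT female and a heterozygous male in the labels, removed by the authors for read quality, were not analysed here.

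Expected counts were rounded. Identifiers of 42929 of 43411 genes matched GENCODE vM21 symbols. filterByExpr by genotype left 12908 genes. edgeR 4.0.16 (R 4.3.3; TMM, quasi-likelihood test) was fitted with 3 genotypes and sex, and with number ranges in place of genotype. Benjamini-Hochberg adjustment covered all genes tested, a call being an adjusted p below 0.05. Levels are CPM, and log2 CPM used a prior count of 2. Per-length levels used summed exon length. Correlations used 100000 permutations (SciPy 1.17.1). Scripts were tested on simulated data. Alternatives were DESeq2 1.42.0, limma-voom 3.58.1, other normalizations, filters and samples, and fits without 1 mouse. Counts of 10812969 to 16734846 per mouse limit precision for genes at a few CPM.

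The members, lists and tests were chosen with earlier results of these data known. Named are all 10 members, listed pathway genes with a call, 7 fixed pathway genes, 4 companion genes, and the 5 genes most like Nr1d1 and Dbp. Removal of depth, principal component or genotype means, and fits without homozygous M4 and heterozygous M1, were added after the data were seen.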

Additional observations from a re-analysis of the deposited data

Results flagged for a closer look

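In each gene, the gap between the most extreme mouse and its neighbour was divided by the range of the group, both in log2 CPM. The ratio was compared with Dixon's 95% critical value for the group's size. Of 50 combinations of gene and group, 8 exceeded it, where chance gives about 1 in 20 for separate checks. These checks are not separate, because homozygous mice entered both together and by number range, so the count cannot show an excess over chance. Homozygous M4 was the low mouse in 3 of the 8, at 0.724 for Dbp, 0.489 for Per2 and 0.468 for Tef over the 10 homozygous mice. Heterozygous M1 was low in Cry1 (0.575), with 4.77 CPM against 7.59 CPM in the next heterozygous mouse. Homozygous F3 was low in Arntl (0.478), with 11.8 CPM against 15.7 CPM in the next mouse. Within range 03, M2 was high in Per2 (0.634) and F1 low in Per3 (0.631). Within the 4 mice of range 04, M5 was high in Arntl (0.88).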

How the results depend on the processing

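Between homozygous and heterozygous mice the count of clock genes called was 1. It was 2 without homozygous F1, F2, M1 and M2 (Cry1 and Nr1d1) and without homozygous M4 and heterozygous M1 (Cry1 and Tef), 0 with range 04 alone, and 1 to 2 with each mouse left out. Between homozygous and WT mice the count was 0. It was 1 (Tef) with range 03 alone and without homozygous M4 and heterozygous M1, and 0 to 1 with each mouse left out. The cause was not tested. Of 45 pairs, the count of correlations with an adjusted p below 0.05 was 1 in range 02 and 0 after removing the log2 total, the first principal component, genotype means or sex means, and it was 2 in homozygous mice and 0 without M4. DESeq2, limma-voom, other normalizations, other filters and no sex term changed none of the counts of calls among the 10 clock genes.

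Several uncalled values changed sign. Homozygous against WT, scaling by library total gave 0.071 for Arntl, 0.043 for Cry2, 0.051 for Rora and 0.049 for Nfil3. Without homozygous F1, F2, M1 and M2, Per1 was -0.070, Bhlhe40 -0.055, Rora 0.045 and Nfil3 0.062. Only F3 and M3 then remained in range 03, against which the range 04 values were 0.25 for both Arntl and Nr1d1. With range 03 alone, Per2 was 0.073, Arntl 0.0063 and Cry2 0.13 against WT, and Per1 0.069 and Ciart 0.037 against heterozygous mice. With range 04 alone, Per1 was -0.15, Cry1 -0.13, Clock -0.039, Bhlhe40 -0.52, Rora 0.19 and Nfil3 0.037 against WT, and Per2 -0.13 against heterozygous mice. Without homozygous M4 and heterozygous M1, Rora was 0.017 against WT, Nr1d2 0.0041 and Ciart 0.22 against heterozygous mice, and Per3 0.045, Dbp 0.030, Tef 0.024 and Nr1d2 0.040 between ranges. In homozygous mice, r of Arntl with Dbp was -0.053 without M4, and r of Per3 with Arntl 0.022 without the first component.

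With each mouse left out, homozygous against WT ranged from -0.095 to 0.080 for Arntl, -0.036 to 0.15 for Cry1, -0.24 to 0.069 for Cry2, -0.12 to 0.025 for Nfil3, -0.29 to 0.043 for Per2, -0.21 to 0.13 for Per3 and -0.19 to 0.026 for Rora. Heterozygous against WT ranged from -0.074 to 0.20 for Dbp and -0.010 to 0.45 for Per3, and homozygous against heterozygous from -0.34 to 0.20 for Ciart. Range 04 against 03 ranged from -0.41 to 0.035 for Dbp, -0.45 to 0.013 for Nr1d1, -0.28 to 0.041 for Nr1d2, -0.40 to 0.050 for Per3 and -0.30 to 0.024 for Tef. Ciart, at a median of 16 counts, and Bhlhe40, at 9, have values of low precision at this depth.

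No paired analysis was possible because animal numbers are not shared between genotypes, and the numbers naming mice here were given within each genotype.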
